A study of Mus musculus with 4 samples.

Results

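TEC is the biotype that the Ensembl annotation gives to transcripts known from sequence evidence and still awaiting experimental support. From the table of normalized counts in mouse heart fractions, every gene with the Ensembl biotype TEC and a mean of at least 20 normalized counts over the 4 libraries was taken. This gave 51 genes of 885 TEC genes and of 15746 genes of all biotypes. The annotation gives each of the 51 as 1 exon, with lengths from 908 to 30942 bases and a median of 3337 bases. By position, 35 of the 51 (68.6%) lay wholly inside a protein_coding gene, against 728 of the other 834 TEC genes (87.3%). Of these 35, 30 had the same strand as a host gene and 29 lay within an intron of it, so that reads from unspliced host RNA and reads from a separate intronic transcript would fall on the same bases. The genes were thus selected on their normalized counts in both fractions, and 45 of the 51 reached a mean of 20 in the rest fraction but not in the mitochondrial fraction, 5 in both fractions and 1 in the mitochondrial fraction alone. A gene that is present in the rest fraction alone needs a rest mean of about 2 times the limit to be included, and the fractions must then differ. Counts and medians over the 51 genes are therefore descriptions.

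The study compared RNA from isolated heart mitochondria with RNA from the remaining heart tissue of wild-type (WT) mice, to look for nuclear-encoded RNAs in mitochondria. Each fraction had 2 libraries (mitochondria replicates 1 and 2, rest replicates 1 and 2) of total RNA made with a stranded kit for small inputs, and no library carried an engineered allele or a drug. The rest fraction was the low-speed pellet of cell debris, while the mitochondrial fraction was pelleted at higher speed and treated with digitonin and RNase A before RNA isolation. RNA of the mitochondrial fraction was also fragmented for an adjusted time, so that fraction, RNase treatment and fragmentation cannot be told apart, and in such bulk samples fewer cells of a type and less RNA per cell cannot be told apart either. The ages of the animals, and whether same-numbered libraries came from the same heart, are not given in the labels.

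Introns are removed from a primary transcript while or soon after it is made, and intronic RNA is therefore found mainly in the nucleus. A mature messenger RNA or long non-coding RNA is usually cut and polyadenylated a short distance downstream of a hexamer such as AATAAA or its common variant ATTAAA.

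The last 50 bases of the transcripts are shown for a pattern seen in these data. The few TEC genes with a log2 fold change (mitochondria over rest) above -1 mostly carried a polyadenylation hexamer there, and most others did not. Sequences are from GENCODE transcripts of build GRCm38, are written 5′ to 3′ on the strand of the transcript, and carry every AATAAA and ATTAAA in capitals. The first set holds the 5 TEC genes, of 51, with a log2 fold change above -1. AA474408 is only just inside this limit, at -0.997, with a mean of 104.5 normalized counts in mitochondria and 396 in rest (54 and 738).
Gm37829 (chr7:81530309-81530358, minus strand): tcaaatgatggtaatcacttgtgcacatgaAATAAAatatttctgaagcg
AA474408 (chr7:110057987-110058036, minus strand): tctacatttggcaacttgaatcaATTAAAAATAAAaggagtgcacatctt
Gm44250 (chr6:5216258-5216307, minus strand): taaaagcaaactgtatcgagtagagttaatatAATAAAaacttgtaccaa
Gm44669 (chr7:67679335-67679384, minus strand): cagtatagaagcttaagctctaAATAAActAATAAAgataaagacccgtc
Gm45819 (chr7:110121691-110121740, plus strand): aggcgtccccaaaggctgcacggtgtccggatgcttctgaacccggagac
In this set, 4 of 5 genes had AATAAA with 12 to 15 bases after it, and Gm44669 had a second AATAAA with 22 bases after it. The second set holds 6 genes that were lower in mitochondria in the test given below.
Gm43361 (chr5:122500799-122500848, plus strand): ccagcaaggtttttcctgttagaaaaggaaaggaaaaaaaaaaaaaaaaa
Gm43359 (chr5:122482800-122482849, minus strand): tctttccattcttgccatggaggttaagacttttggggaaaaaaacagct
Gm47493 (chr13:12047342-12047391, minus strand): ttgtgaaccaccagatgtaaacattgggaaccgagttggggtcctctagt
Gm45223 (chr7:90137580-90137629, plus strand): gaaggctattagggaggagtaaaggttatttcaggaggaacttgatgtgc
Gm45457 (chr8:45782267-45782316, plus strand): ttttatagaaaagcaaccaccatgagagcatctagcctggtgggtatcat
Gm42639 (chr5:57946863-57946912, plus strand): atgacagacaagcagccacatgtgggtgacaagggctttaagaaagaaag
None of these 6 windows holds either hexamer, and the transcript Gm43361 stops in a run of A. Among the other 46 of the 51 genes, those with a log2 fold change below -1, 8 carried a hexamer in the last 50 bases. Over all 51 the count was 12 (23.5%), against 193 of the other 834 TEC genes (23.1%) and 9767 of 12299 protein_coding genes (79.4%). The reverse complements of the 2 hexamers occurred in the same window in 4 of the 51 (7.84%), 8.39% of other TEC genes and 14.05% of protein_coding genes. Of the 29 genes in a same-strand intron, 5 (17.2%) held a hexamer, and of the remaining 22 genes 7 (31.8%).

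The libraries held about 47400000 and 32100000 reads on genes for mitochondria replicates 1 and 2, and 26300000 and 23500000 for rest replicates 1 and 2. The mitochondrial chromosome gave 97.6% and 93.5% of normalized counts in mitochondria and 63.2% and 67.5% in rest. The deposited scaling makes 1 read worth 3.87 (mitochondria replicate 1) and 2.55 (replicate 2) normalized counts, and 0.264 and 0.365 in rest. Low values in mitochondria therefore move in steps of whole reads, and 3 reads over both mitochondrial libraries together, the limit used below for a gene with no read, correspond to 4.61 normalized counts. Of the 29 cell type markers listed for cardiomyocytes, endothelial cells, fibroblasts, macrophages, smooth muscle and blood, 28 were tested in limma, with 1 lower and none higher in mitochondria (1 and 3 with the replicate numbers added to the model, called the replicate block below). At an unadjusted p under 0.05, 6 markers were lower and 9 higher in limma, where 16.2% of all genes tested were lower and 14.1% higher. The 6 cardiomyocyte markers summed to 199583 to 268638 normalized counts in mitochondria and 189412 to 213812 in rest. Most of this sum was Myh6, with 174838 and 128576 in mitochondria and 184487 and 161461 in rest. At an unadjusted p under 0.05 in limma, 5 of these 6 markers were higher in mitochondria, with a median log2 fold change of 1.23 over the 6. All 5 endothelial markers were lower at that limit (median -0.84), and so was 1 of smooth muscle. Higher were 3 of macrophages and 1 of fibroblasts.

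Added up, the 51 TEC genes had 843 (mitochondria replicate 1) and 909 (replicate 2) normalized counts, against 3701 and 4027 in rest. Per library this was 0.000460% and 0.00111% of all normalized counts in mitochondria and 0.0532% and 0.0469% in rest. Leaving out the mitochondrial chromosome, the shares were 0.0189% and 0.0171% against 0.145% and 0.144%. Normalized counts of the rest libraries exceeded those of both mitochondrial libraries in 46 genes, and the reverse was found in 3 genes (Gm37829, Gm44669 and Gm44250), while AA474408 and Gm45819 overlapped. Over all 12150 genes tested, 33.4% had both rest libraries above both mitochondrial libraries and 27.7% the reverse. In the mitochondrial libraries 9 of the 51 genes had no read, 15 had 1 to 3 reads in both libraries together, and 27 had more.

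**Figure D1:**
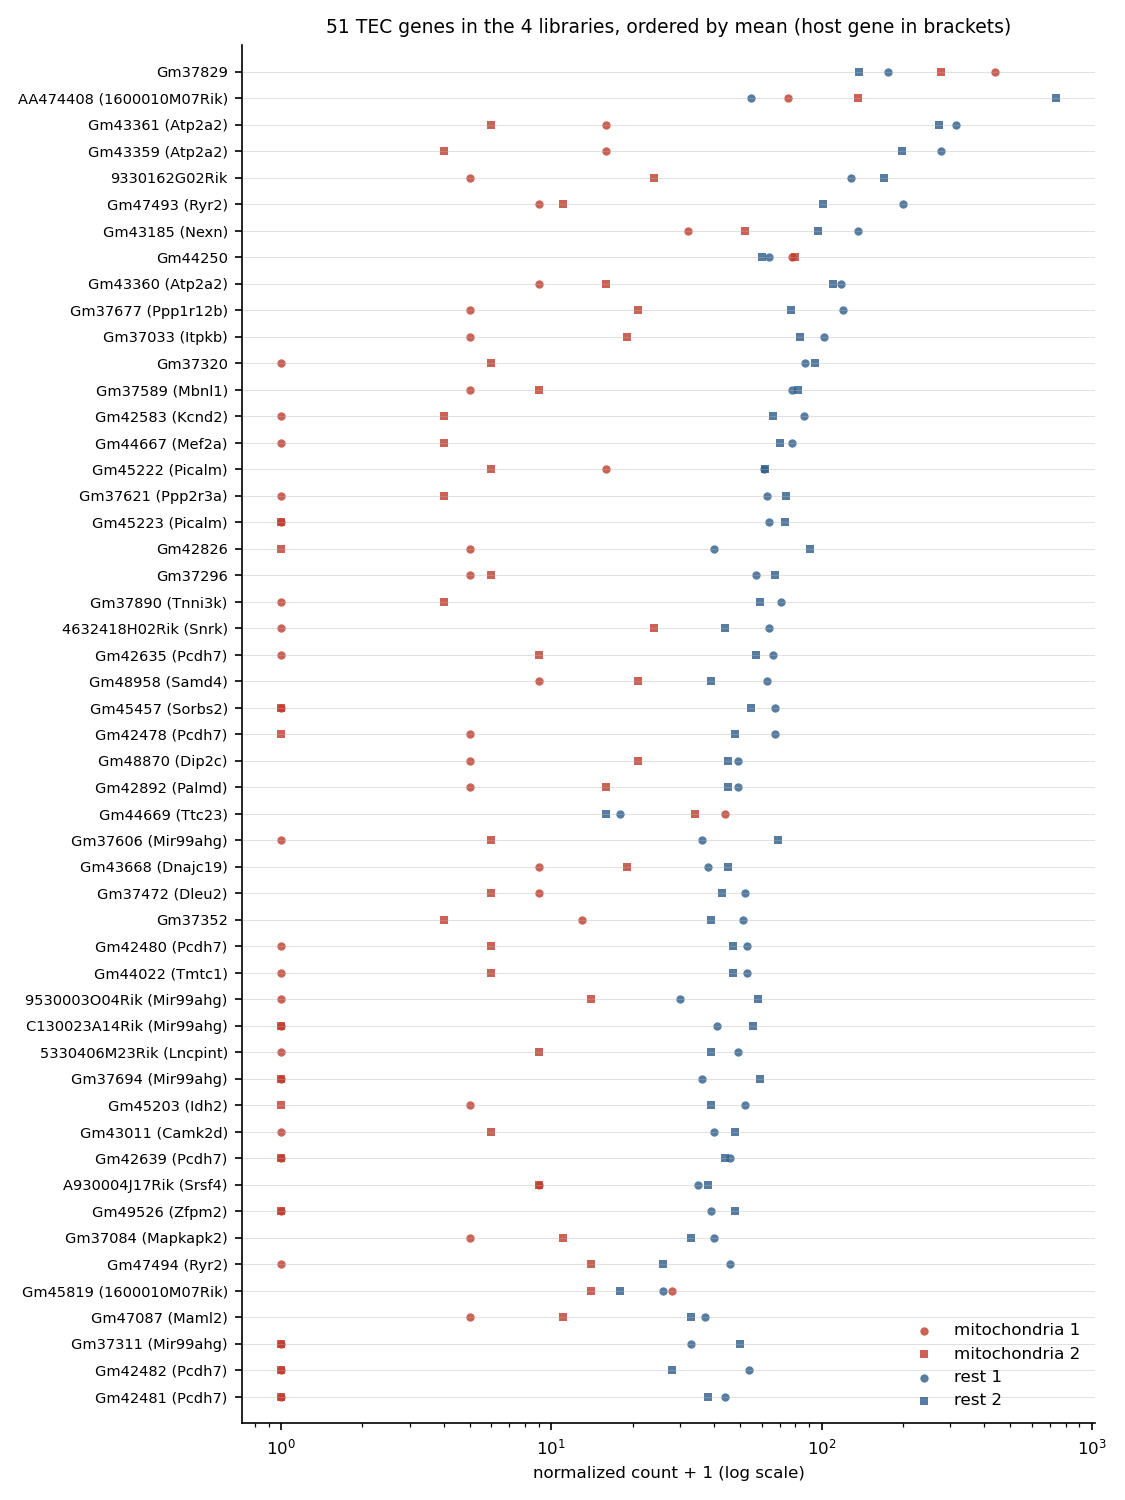
Normalized count plus 1 (log axis) of each of the 51 TEC genes in mitochondria (red) and rest (blue), circles for replicate 1 and squares for replicate 2, ordered by the mean of the 4 libraries with the host gene in brackets. Points at the left edge are libraries with no read, and in 46 genes both blue points lie to the right of both red points.

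Each gene was tested in limma on log2 of the normalized count plus 1, with p-values adjusted by the Benjamini-Hochberg method over the 12150 genes that reached 10 normalized counts in 2 or more libraries. All 51 TEC genes passed this filter. Of these, 20 were lower in mitochondria at an adjusted p under 0.05, where 1.39% of all genes tested were, and none was higher, where 2.16% of all genes were. At an unadjusted p under 0.05, 43 were lower, against 16.2% of all genes, and 2 higher in limma, against 14.1%. The limma model with the replicate block called 28 lower, where 2.54% of all genes were, and 1 higher, Gm37829, where 3.87% were. The 20 calls without the block took in all 9 genes with no mitochondrial read. They also held 5 of the 15 genes with 1 to 3 reads and 6 of the 27 with more. In a gene with no mitochondrial read both mitochondrial values are equal and add no spread to the test, so calls were most frequent at the floor. The median log2 fold change of the 51 was -3.84, and -3.27 with the 9 genes without mitochondrial reads set at the limit of 3 reads. The median was -0.14 over all genes tested and -2.90 over the 279 other TEC genes tested. It was -1.46 over 322 lncRNA genes and -0.14 over 10624 protein_coding genes. At a mean of at least 20, as for the 51, it was -0.91 over 94 lncRNA genes, -0.11 over 8362 protein_coding genes and -0.09 over all 8993 genes. The other TEC genes had means below 20 by the rule, and a low mean limits how negative a log2 fold change can be. Their median is therefore not matched in level to that of the 51. Of the other 279 TEC genes, 20 (7.17%) were called lower and none higher in limma. At an unadjusted p under 0.05, 181 of the 279 were lower and 1 higher, and with the replicate block 2 were called lower and none higher. The adjusted p-values lay close to the limit, the lowest being 0.0427, shared by 14 genes. With any 1 of the 4 libraries left out the calls did not hold, as given below. In these fits 47 or 48 of the 51 log2 fold changes were below 0, against 52.5% to 56.3% of all genes tested. With all 4 libraries 48 of the 51 were below 0, and so were 276 of the other 279 TEC genes tested. Most of the 51 reached the mean of 20 through the rest fraction, so this direction largely follows from the selection.

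**Figure D2:**
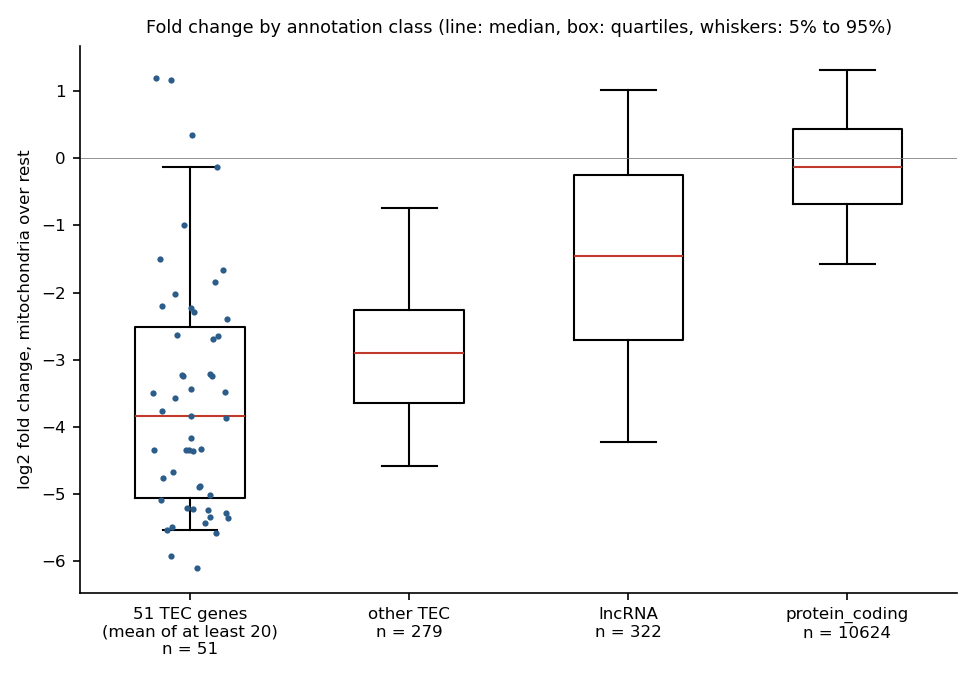
Log2 fold change (mitochondria over rest, limma) for the 51 TEC genes, the other TEC genes tested, lncRNA and protein_coding genes. Boxes are quartiles around the median and whiskers run from the 5th to the 95th percentile, with each of the 51 shown as a point. The medians are -3.84, -2.90, -1.46 and -0.14. Only the 51 were held to a mean of at least 20, so the classes are not matched in level.

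Atp2a2, the gene of the calcium pump that refills the sarcoplasmic reticulum of heart muscle after each beat, held 3 of the TEC genes. Gm43361 (chr5:122496159-122500848, plus strand), antisense to Atp2a2 and overlapping an exon of it, had 15 and 5 normalized counts in mitochondria and 313 and 270 in rest. Its level was far higher in both rest libraries, and its log2 fold change was -4.90 ± 0.52 (SE, n = 2 per fraction, limma adjusted p = 0.0427). On the same strand as Atp2a2, Gm43359 (chr5:122482800-122484999) in intron 5 had 15 and 3 normalized counts in mitochondria and 276 and 198 in rest. The mitochondrial values of Gm43359 stand for 5 reads, and its log2 fold change was -4.88 ± 0.71 (limma adjusted p = 0.0469). Gm43360 in intron 3, also on the strand of Atp2a2, had 8 and 15 normalized counts in mitochondria and 117 and 109 in rest, a log2 fold change of -3.25 ± 0.38 (limma adjusted p = 0.0427). All 3 fell in mitochondria. Atp2a2 itself had 15794 and 10612 normalized counts in mitochondria and 24253 and 21853 in rest, a log2 fold change of -0.83 that did not pass (limma adjusted p = 0.155). Per kb of exon in the rest fraction, Gm43359 reached 108 normalized counts, Gm43361 62.2, Gm43360 39.1 and Atp2a2 3791. Reads were counted from a stranded kit, but the use of strand in counting is not given, and without it reads of Gm43361 and of the Atp2a2 primary transcript cannot be told apart.

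Ryr2, the calcium release channel of the sarcoplasmic reticulum, holds 2 of the TEC genes. Gm47493 in intron 1 had 8 and 10 normalized counts in mitochondria and 200 and 100 in rest, and was lower in mitochondria (log2 fold change -3.84 ± 0.42, limma adjusted p = 0.0427). Gm47494 in intron 16 had 0 and 13 normalized counts in mitochondria and 45 and 25 in rest (log2 fold change -3.21 ± 1.34, limma adjusted p = 0.189). The fractions did not overlap for either gene, and for Gm47494 the spread between the mitochondrial libraries was wide. Ryr2 messenger RNA had 10159 and 6395 normalized counts in mitochondria and 22792 and 18549 in rest (limma adjusted p = 0.0755).

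Of the list of 16 calcium handling and membrane genes, 4 were host genes: Atp2a2, Ryr2, Camk2d and Kcnd2. Gm43011 lies in intron 2 of Camk2d, a kinase activated by calcium and calmodulin, with 0 and 5 normalized counts in mitochondria and 39 and 47 in rest (log2 fold change -4.16 ± 0.96, limma adjusted p = 0.0724, or 0.0499 with the replicate block). Gm42583 lies in intron 1 of Kcnd2, a potassium channel of the transient outward current, with 0 and 3 against 85 and 65 normalized counts. This was 1 read in the mitochondrial libraries against 500 in the rest libraries, a scaled ratio of 49.9 (exact 95% interval from counting error only 8.91 to 1973), and the decrease in mitochondria was called (limma adjusted p = 0.0473). None of the 20 sarcomere genes and none of the 14 energy metabolism genes listed was a host gene. Over all 12321 protein_coding genes, 27 were host genes. Gene length was not taken into account (Ryr2 spans 553844 bases and Kcnd2 514303), and a link of the TEC genes with calcium handling was not tested.

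Pcdh7, a protocadherin of the cell surface, held 6 TEC genes, the most of any gene, all on its own strand. In intron 1, Gm42635, Gm42481, Gm42480 and Gm42482 lie between 6426 and 82482 bases from the start of the gene, Gm42478 lies in intron 2 and Gm42639 in intron 3. Together they had 4 and 13 normalized counts in mitochondria, from 6 reads, and 324 and 256 in rest, from about 1928 reads. No read of Gm42639, Gm42481 or Gm42482 was found in mitochondria, against 45 and 43, 43 and 37, and 53 and 27 normalized counts in rest. Against the limit of 3 reads over both mitochondrial libraries, Gm42639 was at least 9.57-fold, Gm42482 at least 9.14-fold and Gm42481 at least 8.77-fold higher in rest. These 3 were called lower in mitochondria, and the other 3 had limma adjusted p-values of 0.059 (Gm42478, 0.0355 with the replicate block), 0.0673 and 0.0852. Levels in rest per kb ran from 18.4 normalized counts for Gm42481 to 38.5 for Gm42478, which begins 211783 bases into the gene, against 83.2 over the exons of Pcdh7. Pcdh7 had 221 and 199 normalized counts in mitochondria and 840 and 925 in rest, and was itself lower (log2 fold change -2.07, limma adjusted p = 0.0427).

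Mir99ahg, a long non-coding host transcript of microRNA genes, held 5 TEC genes in its introns, the largest group outside coding genes. C130023A14Rik, Gm37694 and Gm37311 had no read in mitochondria and 40 and 55, 35 and 58, and 32 and 49 normalized counts in rest. They were at least 10.0-fold, 9.67-fold and 8.48-fold higher in rest and were called lower in mitochondria (limma adjusted p = 0.0427 for each). Gm37606 had 0 and 5 normalized counts in mitochondria against 35 and 68, and 9530003O04Rik 0 and 13 against 29 and 57, both short of the limit (limma adjusted p = 0.0721 and 0.168), although Gm37606 was called with the replicate block (limma adjusted p = 0.0388). The 5 genes summed to 0 and 18 normalized counts in mitochondria and 171 and 287 in rest, and the exons of Mir99ahg to 35 and 71 against 134 and 208. In rest the 5 TEC genes had 15.4 to 47.4 normalized counts per kb, each above the 12.0 per kb of the Mir99ahg exons, whereas every TEC gene of Atp2a2 and Pcdh7 was below its host. The exon levels are averages over the exons of all annotated isoforms.

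**Figure D3:**
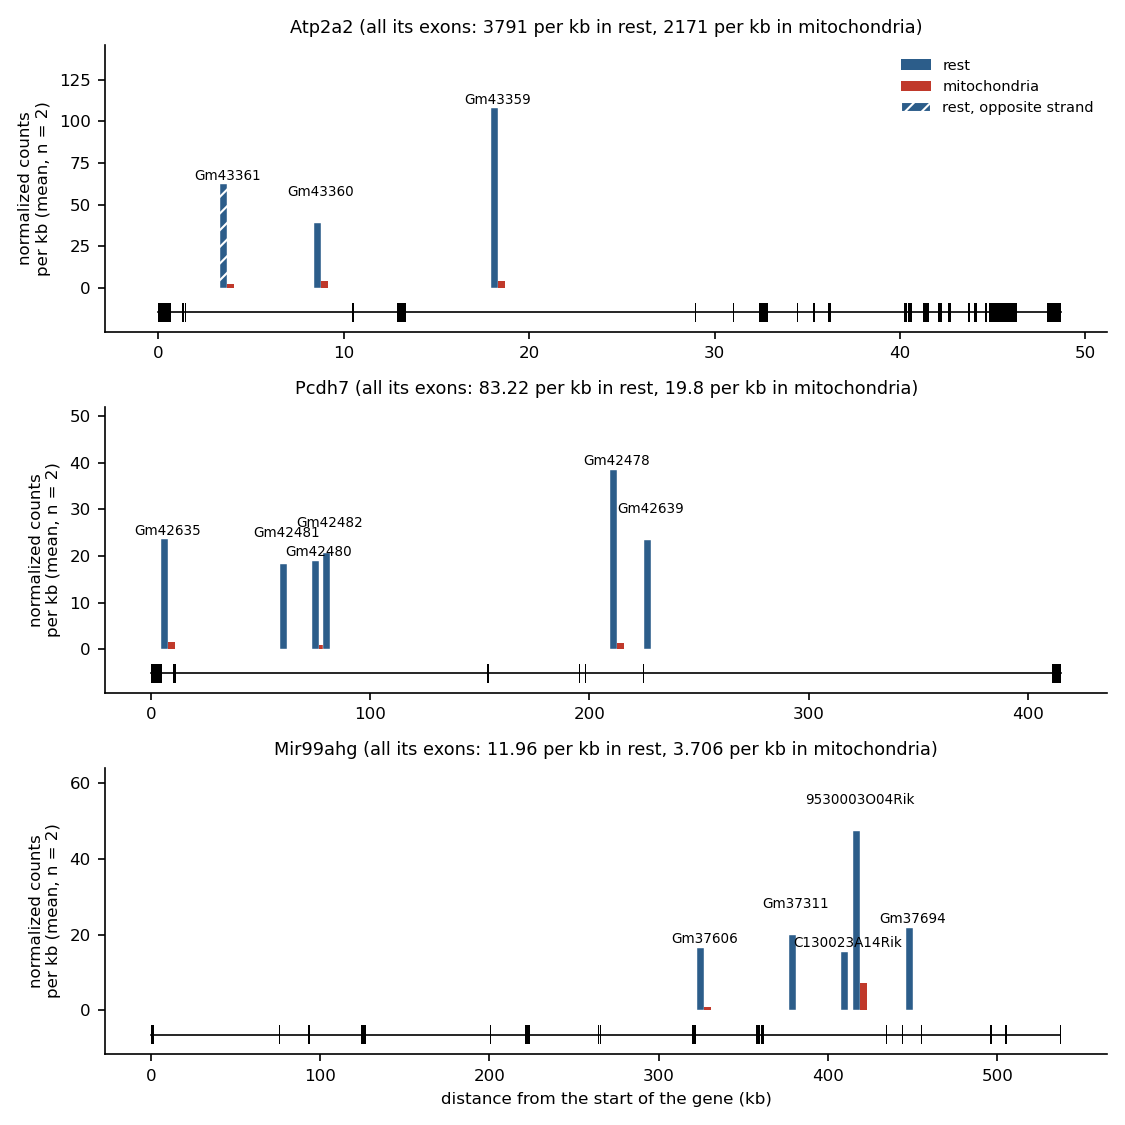
Mean normalized counts per kb in rest (blue, hatched for the opposite strand) and mitochondria (red) of the TEC genes inside Atp2a2, Pcdh7 and Mir99ahg, against distance from the start of the gene in kb, with exons of all annotated isoforms as black blocks below. Gm43359 reaches 108 per kb in rest in Atp2a2, Gm42478 38.5 in Pcdh7 and 9530003O04Rik 47.4 in Mir99ahg, and mitochondrial bars are low or missing.

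Picalm, which encodes a clathrin assembly protein, held Gm45222 and Gm45223 in intron 1. Gm45223 had no read in mitochondria and 63 and 72 normalized counts in rest, at least 14.5-fold higher, the largest such bound of the 9 genes without mitochondrial reads. Gm45222, further along the same intron, had 15 and 5 normalized counts in mitochondria and 60 and 61 in rest (log2 fold change -2.65 ± 0.55, limma adjusted p = 0.0641, or 0.0468 with the replicate block). Thus rest levels were nearly equal while mitochondrial levels were not, and Gm45222 carries AATAAA with 15 bases after it whereas Gm45223 holds no hexamer in the window. Whether the change of Gm45222 differs from that of Gm45223 was not tested.

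Among the remaining genes called with the lowest adjusted p-values, Gm45457 lies in intron 12 of Sorbs2, an adaptor protein of the Z-disc. It had no mitochondrial read and 66 and 54 normalized counts in rest, at least 13.2-fold higher. Gm45457 also lies within the span of the lncRNA Sorbs2os on the opposite strand. Sorbs2os had 0 and 3 normalized counts in mitochondria and 49 and 46 in rest (log2 fold change -4.60, limma adjusted p = 0.0548). As the use of strand in counting is not given, whether reads of these 2 genes were kept apart is not known. Gm49526 lies in intron 5 of Zfpm2, a cofactor of GATA factors in heart development, and had no mitochondrial read against 38 and 47 normalized counts, at least 9.07-fold higher in rest. 9330162G02Rik (chr7:59223847-59254788, minus strand), the longest of the 51 genes, overlaps part of the ubiquitin ligase gene Ube3a on the opposite strand. It had 4 and 23 normalized counts in mitochondria and 128 and 169 in rest (log2 fold change -3.76 ± 0.79, limma adjusted p = 0.0649, or 0.0307 with the replicate block), and with 4.80 normalized counts per kb in rest it was the lowest of the 51 per length.

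Across the 29 genes in same-strand introns of coding genes, 14 lay in intron 1 and 22 in introns 1 to 3, at a median of 21.5% of the way along the host gene. The introns holding them were long, with a median of 65789 bases and a range of 7098 to 496721 bases. Place and intron length were not compared with those of the 613 other TEC genes in same-strand introns, so they are not shown to be particular to these 29. In rest, the normalized counts per kb of these intronic genes were between 1.03% (Gm43360 in Atp2a2) and 84.4% (A930004J17Rik in Srsf4) of those of the host's exons, with a median of 29.98%. Below 10% were 6 of the 29.

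To compare a TEC gene with its host, the difference of their log2 values was tested in limma over the 592 pairs of a nested non-coding gene and a protein_coding gene around it, in which 23.1% of pairs were called lower. There were 36 pairs for the 35 TEC genes, because Gm44667 lies inside both Mef2a and Lysmd4. In 35 of the 36 pairs the TEC gene had the more negative log2 fold change, and 18 pairs were called, all lower for the TEC gene. The median difference was -3.04 over the 36 pairs, -1.93 over all 592 and -2.40 over the 247 pairs of other TEC genes, of which 27.9% were called lower. Hosts themselves had a median log2 fold change of -0.54, with 2 of 27 called lower (Pcdh7 and Sorbs2) and 2 called higher (Dnajc19 and Nexn). No pair was called lower once replicate numbers entered the model, where 23 of 36 were lower at an unadjusted p under 0.05, against 31.2% of all 592 pairs, and the lowest adjusted p was 0.0901. None was called without rest replicate 1 or without rest replicate 2, with 11 of 36 lower at an unadjusted p under 0.05 in each case, against 10.1% and 11.1% of all pairs. Without mitochondria replicates 1 and 2, 30 and 35 of the 36 pairs were called lower, and so were 53.5% and 66.0% of all 592 pairs.

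Per 1000 normalized counts of Picalm, Gm45223 had 0 in both mitochondrial libraries, against 124 and 113 in rest. The difference in log2 fold change was -5.39 ± 0.58 (limma adjusted p = 0.0243). With no mitochondrial read, the size of this difference and its SE depend on the 1 added to each normalized count. The log2 fold change of Gm45223 itself was -6.09, against -2.95 with 10 added and -9.40 with 0.1 added. Gm45203 lies in intron 1 of Idh2, the isocitrate dehydrogenase of the mitochondrial matrix, and had 0.856 and 0 per 1000 of Idh2 in mitochondria against 20.1 and 20.6 in rest, a difference of -5.03 ± 0.71 (limma adjusted p = 0.0243). While Idh2 had a log2 fold change of 0.70 (limma adjusted p = 0.246), Gm45203 had -4.33 (limma adjusted p = 0.0639, or 0.045 with the replicate block). The differences of Gm49526 from Zfpm2, Gm45457 from Sorbs2 and Gm43361 from Atp2a2 were -4.81, -4.76 and -4.07 (limma adjusted p = 0.0243 for each). For Gm42639 and Pcdh7 the difference was -3.43 ± 0.57 (limma adjusted p = 0.026), although Pcdh7 itself fell. Because Gm49526, Gm45457 and Gm42639 also had no mitochondrial read, their differences depend on the added 1 in the same way. Gm45203 had 1 mitochondrial read, and its log2 fold change of -4.33 was -2.19 with 10 added and -6.11 with 0.1 added.

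In 2 pairs the host was called higher in mitochondria and the TEC gene was not. Hosts Idh2, Mapkapk2 and Samd4 also had positive log2 fold changes (0.70, 0.60 and 0.43) but were not called in limma. Their TEC genes Gm45203, Gm37084 and Gm48958 had negative ones (-4.33, -2.29 and -1.85). Nexn encodes nexilin, an actin-binding protein of heart muscle, and Gm43185, which overlaps an exon of it, had 31 and 51 normalized counts in mitochondria and 136 and 96 in rest. The log2 fold change of Nexn was 1.26 (limma adjusted p = 0.0473), that of Gm43185 -1.499 (limma adjusted p = 0.074), and their difference -2.76 ± 0.66 (limma adjusted p = 0.0457). Dnajc19, a protein of the inner mitochondrial membrane, had a log2 fold change of 1.59 (limma adjusted p = 0.0427). Gm43668, antisense within intron 5 of Dnajc19, had 8 and 18 normalized counts in mitochondria against 37 and 44, and differed from it by -3.25 ± 0.68 (limma adjusted p = 0.0348).

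**Figure D4:**
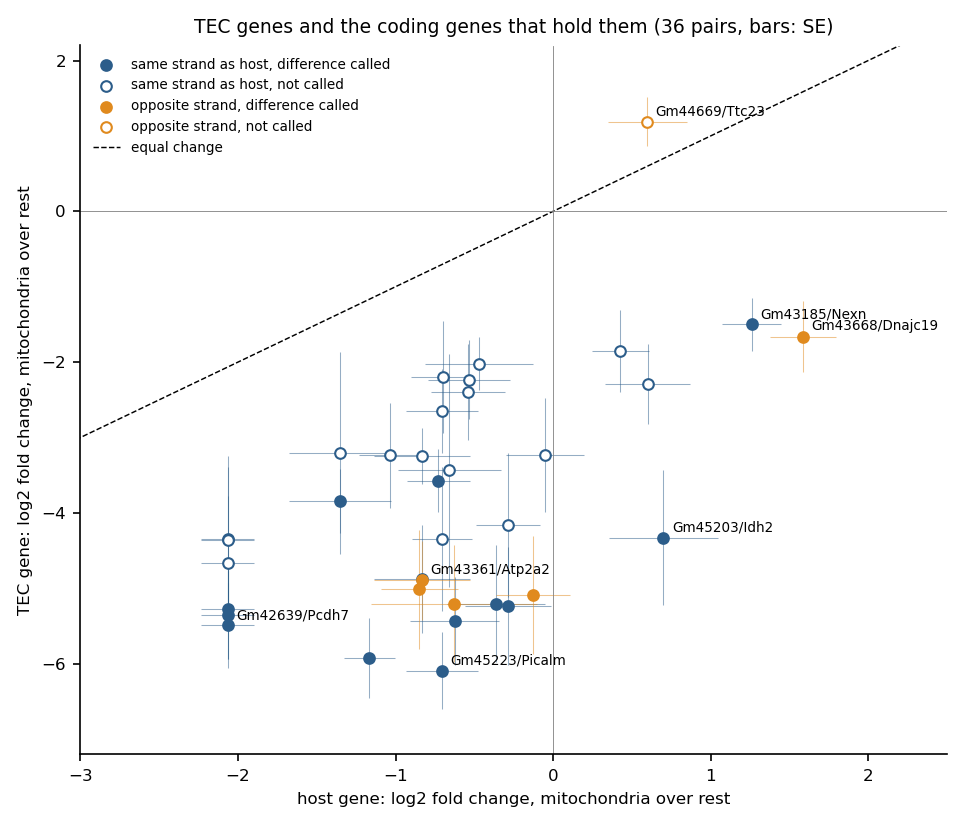
Log2 fold change (mitochondria over rest) of each TEC gene against that of its protein_coding host, with SE bars, for 36 pairs, filled where the limma test of the difference was called. The dashed line marks equal change, and 35 of 36 points lie below it, Gm44669 in Ttc23 being the exception. Of the 247 pairs of other TEC genes, not drawn, 240 had the same direction.

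The 5 TEC genes with a log2 fold change above -1 are described with the genes around them. Gm37829 (chr7:81530309-81532521, minus strand) had the highest mean of the 51, 256 normalized counts, with 438 and 275 in mitochondria and 175 and 137 in rest. Both mitochondrial libraries were above both rest libraries, but the log2 fold change of 1.16 ± 0.30 did not pass without the block (limma adjusted p = 0.0858) and did with it (limma adjusted p = 0.045). Gm37829 begins 787 bases downstream of the coding gene Fsd2 on the same strand, and also overlaps the lncRNA 2900076A07Rik on the opposite strand. Fsd2, a muscle protein, had 2986 and 2010 normalized counts in mitochondria and 1112 and 911 in rest (log2 fold change 1.28, limma adjusted p = 0.0627, or 0.0339 with the replicate block), and 2900076A07Rik had 143 and 92 against 67 and 50 (log2 fold change 0.97, limma adjusted p = 0.13). All 3 genes of this locus thus had higher values in both mitochondrial libraries. Reads on several genes were left out of the counts, but the strand used in counting is not given. How reads were counted where Gm37829 and 2900076A07Rik overlap is therefore not known.

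Gm44250 (chr6:5216258-5220486, minus strand) had 77 and 79 normalized counts in mitochondria and 63 and 59 in rest, the smallest absolute change of the genes whose fractions did not overlap (log2 fold change 0.35 ± 0.21, limma adjusted p = 0.328). It begins 366 bases downstream of the end of Pon3, a paraoxonase gene on the same strand, which had 31 and 20 normalized counts in mitochondria and 28 and 37 in rest. Gm44669, antisense within intron 6 of Ttc23, had 43 and 33 normalized counts in mitochondria and 17 and 15 in rest (log2 fold change 1.19 ± 0.33, limma adjusted p = 0.0983). It was the only one of the 51 that reached a mean of 20 through mitochondria alone, and its mitochondrial values stand for 24 reads. For Gm37829, Gm44250 and Gm44669 the direction turns under scaling to the library total, which moves the median of all genes by -3.79 on the log2 scale, and for Gm44250 also under the total without the mitochondrial chromosome, which moves it by -0.84. Relative to the median of all genes, their log2 fold changes remain positive under each of these scalings.

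AA474408, opposite to and partly overlapping the zinc finger gene Zfp143, had 74 and 135 normalized counts in mitochondria and 54 and 738 in rest. The rest libraries differed 13.7-fold, the widest gap among the 51, where the median ratio of the higher to the lower rest library was 1.22, and only 1 other gene, Gm42826, differed more than 2-fold. Its log2 fold change was -0.997 ± 1.26 (limma adjusted p = 0.622) and was 0.88 without rest replicate 2. AA474408 shared stretches of at least 50 bases at 95% identity with other genes over 6.80% of its length. Gm45819, which starts 306 bases upstream of the cell cycle kinase gene Wee1 on the same strand, had 27 and 13 normalized counts in mitochondria and 25 and 17 in rest (log2 fold change -0.13 ± 0.49, limma adjusted p = 0.876). AA474408 and Gm45819 both lie within the span of the non-coding gene 1600010M07Rik.

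Of the 16 TEC genes outside coding genes, 5 carried a hexamer and had a median log2 fold change of -0.997, and 11 did not and had a median of -4.35. The median of -0.997 is the value of AA474408, whose rest libraries (54 and 738 normalized counts) differed widely. The other genes of these 5 were split, at 1.16, 0.35, -3.48 and -3.87. For the 35 genes inside coding genes the medians were -2.39 with a hexamer (7 genes) and -4.35 without (28 genes). This pattern was seen in these genes first. In the other 279 TEC genes tested, the 16 genes outside coding genes with a hexamer had a median of -1.19 and the 19 outside without one -2.95. Inside coding genes the medians were -3.01 for 44 genes with a hexamer and -2.95 for 200 without. A log2 fold change above -1 was found in 7 of the 16, 1 of the 19, 1 of the 44 and 9 of the 200. These are descriptions over genes that share the 4 libraries, and no test was made of them.

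**Figure D5:**
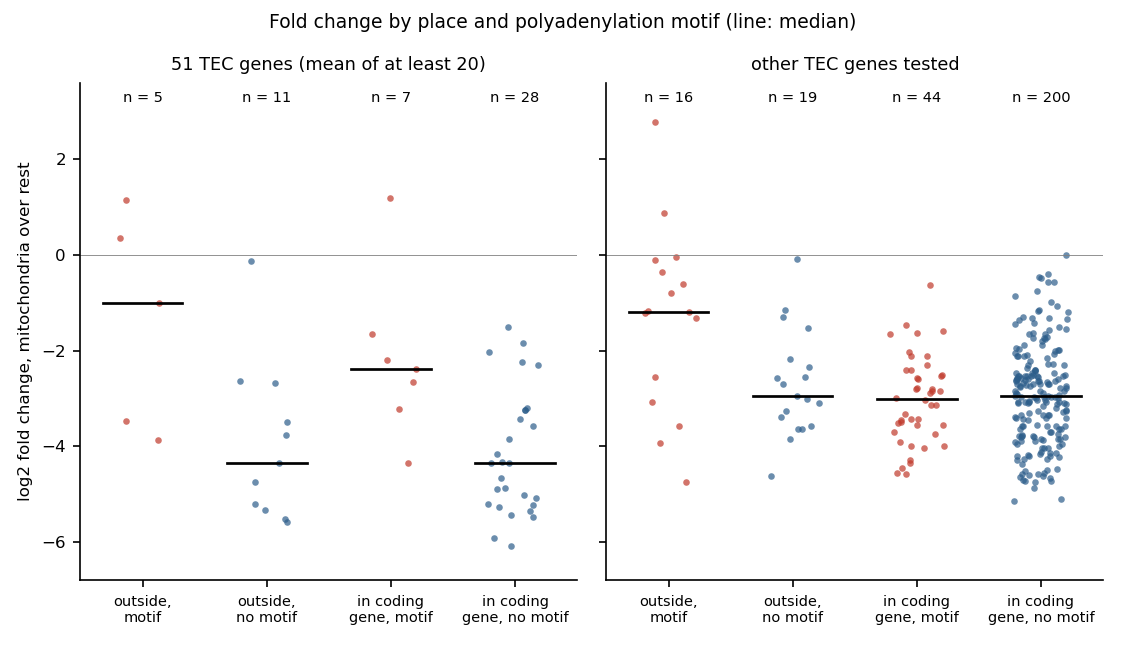
Log2 fold change (mitochondria over rest) of the 51 TEC genes (left) and the other 279 TEC genes tested (right), split by place outside or inside a coding gene and by a hexamer AATAAA or ATTAAA (red, motif) in the last 50 bases. Horizontal lines are medians, which are highest for genes outside coding genes with a motif, at -0.997 on the left and -1.19 on the right. The -0.997 is the value of AA474408, whose rest libraries differed widely, and the other genes of that group lie well above or well below it.

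Summed over all 885 TEC genes, whatever their mean, the 642 in same-strand introns gave 518 and 2022 normalized counts in mitochondria and 8510 and 7613 in rest, 6.35 times as much on average. The 122 outside coding genes gave 893 and 1121 against 1888 and 2663, 2.26 times as much, with Gm37829 adding 438 and 275 to the mitochondrial sums. Without the 51 genes the ratios were 5.56 for 613 intronic genes and 2.30 for 106 genes outside. Mitochondria replicate 2 had more intronic TEC counts than replicate 1 throughout, 1795 against 420 without the 51 genes.

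For comparison, a list of 16 long non-coding RNAs was used, most of them known from the nucleus, although Gas5 and Norad are known mainly from the cytoplasm. Of the 12 tested members 1, Lncpint, was lower in mitochondria and none was higher in limma (6 and 1 at an unadjusted p under 0.05, 5 and 0 with the replicate block). Lncpint had 4 and 15 normalized counts in mitochondria and 234 and 205 in rest (log2 fold change -4.62, limma adjusted p = 0.0427), and the TEC gene 5330406M23Rik in its intron 2 had 0 and 8 against 48 and 38 (log2 fold change -3.87 ± 1.12, limma adjusted p = 0.107). Malat1, the most abundant of the list, had 13226 and 8375 normalized counts in mitochondria and 40240 and 43742 in rest (log2 fold change -1.99, limma adjusted p = 0.0522, or 0.0411 with the replicate block), and Kcnq1ot1 19 and 79 against 692 and 644 (log2 fold change -4.06, limma adjusted p = 0.0524, or 0.027 with the replicate block). Pvt1 went the other way, with 23 and 23 normalized counts in mitochondria against 5 and 4 in rest (log2 fold change 2.13, limma adjusted p = 0.0637). Tug1 and Meg3 had smaller changes, with log2 fold changes of -0.38 and -0.57. The median of the 12 was -1.84, and -1.99 for the 11 without Gas5 (left out after the data were seen). The part of nuclear RNA in the values of the TEC genes was not tested.

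At the limit of a mean of 20, the genes just inside were Gm42481 and Gm42482 with a mean of 20 and Gm37311 with 20.25. Just outside were Gm10524 with 19.75, Gm42972 in Ank2 with 19.5 and Gm44021 in Tmtc1 with 19.0. Gm10524 had 35 and 8 normalized counts in mitochondria and 22 and 14 in rest, while Gm42972 had 0 and 3 against 48 and 27 and Gm44021 0 and 15 against 32 and 29. Sequence shared with other genes did not cover more than 16.4% of any of the 51, and none matched ribosomal or mitochondrial genes over 50 bases at 95% identity.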

How the data were processed

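Total RNA of mouse heart fractions was sequenced as 2 mitochondrial and 2 rest libraries, grouped by the fraction in the labels. The authors trimmed reads with Trimmomatic 0.39, aligned them to mm10 (GRCm38) with STAR 2.7.10a, counted reads at least partly in exons per gene with featureCounts 2.0.2, left out reads on several genes or regions, and scaled the counts with DESeq2 1.30.1 (versions from the submitters' processing notes; the study's methods give other releases of the last 3). The deposited signal is a count scaled by 1 size factor per library and rounded, called a normalized count here. Strand use in counting is not given in the sources used here.

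Reads per library were estimated from the spacing of the values. In the rest libraries 1 read makes under 1 normalized count, so whole reads were not restored for a count test, and genes were tested in limma 3.58.1 (R 4.3.3) (trend of the variance with the mean, no block) on log2 values after adding 1. Genes that reached 10 normalized counts in 2 or more libraries entered the test and were called at an adjusted p under 0.05. Nested genes were compared with hosts in the same way on differences of log2 values. The scripts were tested on simulated data. Nothing in the labels says that replicates came from separate animals, so p-values measure the spread between these libraries, which may be technical, and an exact permutation test of 2 against 2 libraries cannot go below 0.333. Ratios of reads carry exact 95% intervals for counting error only.

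Sequences and exons came from GENCODE M21 transcripts of GRCm38 (the longest coding transcript of a protein_coding gene), and shared sequence was searched with blastn 2.17.0. Python 3.11.15 was used. The TEC genes, gene lists and tests were chosen with earlier results of these data known. Genes were named by a rule: the 8 highest means, up to 6 called in each direction (otherwise up to 4 of the largest changes), 3 on each side of the limit, TEC genes sharing a host or within a listed heart gene, up to 6 called against their host, and hosts. Gm45819, Gm43668, 5330406M23Rik, A930004J17Rik, Gm42826, Gm37296, Gm37472 and genes given as neighbours or from lists were named after their values were seen. Alternatives were other scalings, filters, pseudocounts, the block, other limits and places for TEC genes, and each library left out. The calls among the calcium handling and membrane genes as a list are not reported here.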

Additional observations from a re-analysis of the deposited data

How the results depend on the processing

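Of the 51 TEC genes, 20 were called lower in mitochondria. In what follows, brackets give all genes called higher and then lower. Scaling to the library total gave 51 (2 and 12022), the total without the mitochondrial chromosome 45 (129 and 3819), a pseudocount of 10 gave 38 (536 and 580), a pseudocount of 0.1 gave 0 (0 and 0, limma, 42 of the 51 at an unadjusted p under 0.05) and a mean above 50 gave 8 lower and 1 higher of 11 (790 and 670). TMM gave 314 and no filter 630 genes lower. TEC genes with a mean of at least 10 or 50 gave 40 and 4. Leaving out each library gave 0 for the 51 and for all genes in both directions (limma, 21 to 46 of the 51 lower at an unadjusted p under 0.05), and the TEC genes called higher stayed at 0 in each. Pairs of a TEC gene and its host called lower (18 of 36, and 137 of all 592 pairs) ranged from 0 to 35 without a library, and all pairs called lower from 0 to 391.

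With the replicate block, 28 TEC genes were lower and 1 higher (all genes 470 and 309), and TEC gene minus host gave 0 calls. Same-numbered libraries deviated together only weakly over genes (r = 0.13 over 2 pairs), so the numbers are not shown to pair the libraries.

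The median log2 fold change of -3.84 was -6.85 and -4.57 under the 2 library totals, -3.24 for genes with a mean above 50, -5.10 and -2.27 with pseudocounts of 0.1 and 10, -4.20 to -3.06 without 1 library, -3.25 and -3.24 for TEC genes with a mean of at least 10 and 50, -3.56 with the limit on rest and 0.15 with the limit on mitochondria (8 genes, chosen for mitochondrial levels). The share inside coding genes was 80.7% at a mean of at least 10. The median difference of TEC gene minus host, -3.04 over the 36 pairs, was -1.68 with a pseudocount of 10. At that pseudocount 23 of the 36 pairs were called lower, and 141 of all 592.

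The share of normalized counts was 0.018% in mitochondria and 0.145% in rest without the mitochondrial chromosome, 0.00137% and 0.0875% at a mean of at least 10, and 0.0454% in rest without AA474408 (chosen after the data were seen). Library totals turned Gm37829 to -2.81, Gm44669 to -2.62 and Gm44250 to -3.56 (-0.50 without the mitochondrial chromosome), AA474408 was between -2.87 and 0.88 without 1 library, and Gm45819 between -0.63 and 0.37. Apart from these reversals, over the 51 genes taken singly, 422 values under other settings kept direction and side of the limit, 106 lost the call and 88 gained it. The cause of these shifts was not tested. In mitochondria few reads limit single genes: 24 of the 51 had 3 reads or fewer.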

Other observations

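Nested genes of other biotypes differed from each other in direction. The 117 pairs of a processed pseudogene inside a protein_coding gene had a median difference from the host of 1.57 on the log2 scale, with 18 called higher and 6 called lower in mitochondria by limma, while the 117 pairs with a nested lncRNA gene had a median of -2.01, with 25 called lower and 3 higher. Among the TEC genes, Gm37296 (chr15:68338295-68341216), which overlaps the microRNA gene Mir30d, had 4 and 5 normalized counts in mitochondria and 56 and 66 in rest and was called lower (limma adjusted p = 0.0427), from 3 mitochondrial reads and about 393 rest reads (scaled ratio 13.1, exact 95% interval 4.44 to 63.6 from counting error only). Gm37472 in intron 1 of the non-coding gene Dleu2 had 8 and 5 against 51 and 42 and was also called lower (limma adjusted p = 0.0473), while Dleu2 had 50 and 20 against 91 and 105 (limma adjusted p = 0.113).

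Hosts on either strand were considered. The 6 pairs with an opposite-strand host had a median difference of -4.12 and 5 were called lower, and the 30 pairs on the same strand had a median of -2.81 and 13 were called lower. For the other TEC genes the medians were -2.20 (23 pairs, 6 lower) and -2.41 (224 pairs, 63 lower), and no test compared the strands.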
